A study of Mus musculus with 6 samples.

Results

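Transcripts of 10 genes that mark differentiating keratinocytes, the cells of stratified epithelium such as epidermis, were examined in mammary glands of mice on 2 diets. The genes were Krtdap, Dmkn, Sbsn, Krt1, Krt10, Sprr1a, Serpinb12, Calml3, Sfn and Ivl. All 10 were found on the array through their RefSeq accessions, on 15 of 39318 usable probes, where all probes together stand for 32357 genes or unnamed transcripts. They were selected on their array signals in this same diet comparison (log2 signal, HFD against CD), so their differences between the diets are given below as a description. Calls of the fit over all genes are counted for them beside the share over all genes, and support nothing. RNA came from the glands of 6 female Trp-53 knockout (Trp53-/-) mice, aged 8 weeks, and each was hybridised to 1 single-colour array. The high-fat diet (HFD) group held 3 mice and the control diet (CD) group the other 3. Feeding began at 3 weeks of age and lasted 5 weeks. Both groups lacked Trp53 and no wild-type mice were measured, so every value below belongs to a p53-deficient animal. The source is given as whole glands, while the sample descriptions speak of mammary epithelial cells, and which was hybridised is not known.

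Keratinocytes leave the basal layer of a stratified epithelium, exchange the basal keratins Krt5 and Krt14 for the suprabasal pair Krt1 and Krt10, and later build a cornified envelope from crosslinked proteins such as involucrin, loricrin and the small proline-rich proteins. Squamous epithelia that do not cornify, and epidermis under repair, use other keratins, among them Krt13 and Krt6. The mammary gland is itself an ectodermal appendage of the skin. Its basal, myoepithelial layer keeps Krt5 and Krt14, but a normal duct does not cornify.

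Sbsn (suprabasin), Dmkn (dermokine) and Krtdap (keratinocyte differentiation-associated protein) encode proteins secreted by suprabasal keratinocytes. They are consecutive protein-coding genes on mouse chromosome 7 in the RefSeq annotation of GRCm38.p6. Sprr1a and Ivl lie close together on chromosome 3, with Sprr4 between them. RefSeq held a start-site sequence for 8 of the 10 genes. The 250 bases before the start are shown for the chromosome 7 neighbours, because 2 of these 3 genes had higher values after the high-fat diet and the other did not, and for Sfn, which had higher values but lies elsewhere. For Dmkn, the first of its 3 listed starts was taken. Each is given 5′ to 3′ on the strand of its gene, in GRCm38.p6 coordinates from RefSeq, with matches to the letters searched in capitals.
Krtdap, chr7:30787655-30787904, + strand: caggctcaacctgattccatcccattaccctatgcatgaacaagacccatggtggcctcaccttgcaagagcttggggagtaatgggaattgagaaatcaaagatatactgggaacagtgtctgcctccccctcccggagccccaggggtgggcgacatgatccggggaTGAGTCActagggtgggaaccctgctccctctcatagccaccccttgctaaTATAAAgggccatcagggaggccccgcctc
Dmkn, chr7:30763506-30763755, + strand: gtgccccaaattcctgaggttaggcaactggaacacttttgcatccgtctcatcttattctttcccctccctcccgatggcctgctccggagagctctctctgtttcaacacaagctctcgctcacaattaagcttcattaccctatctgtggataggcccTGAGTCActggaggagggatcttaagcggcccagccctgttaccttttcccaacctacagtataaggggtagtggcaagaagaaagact
Sbsn, chr7:30751221-30751470, + strand: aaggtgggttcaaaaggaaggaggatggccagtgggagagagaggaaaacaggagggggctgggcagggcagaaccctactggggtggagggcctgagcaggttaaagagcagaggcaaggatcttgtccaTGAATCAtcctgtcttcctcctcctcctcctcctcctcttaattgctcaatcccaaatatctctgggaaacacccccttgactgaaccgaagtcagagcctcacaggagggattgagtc
Sfn, chr4:133602169-133602418, - strand: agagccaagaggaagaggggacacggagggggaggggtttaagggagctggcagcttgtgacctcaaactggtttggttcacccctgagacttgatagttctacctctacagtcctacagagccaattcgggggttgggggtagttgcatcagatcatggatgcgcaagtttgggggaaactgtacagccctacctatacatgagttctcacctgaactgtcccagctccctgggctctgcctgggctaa

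The letters searched, on both strands, were TATAAA for the TATA box, TGANTCA for AP-1 (which reads the same on both strands) and GGGCGG for the GC box. A single repeat unit of a p53-family site, not a whole site, was searched too, and its letters are not printed here. In Krtdap, TATAAA lay 30 to 25 bases before the start and TGAGTCA 81 to 75 bases before it. Dmkn had TGAGTCA 89 to 83 bases before its start, and Sbsn had TGAATCA 119 to 113 bases before its own. Sfn held none of these letters in the window. Over the 8 genes, 6 had an AP-1 match and 5 a TATAAA match, while the GC box and the p53-family unit had 0 matches. Among 27025 genes with a window of this length, 6.87% had the AP-1 letters, 13.0% TATAAA, 32.9% the GC box and 7.18% the p53-family unit. Sprr1a, Ivl and Serpinb12, in which the diets overlapped or the high-fat values were lower, had AP-1 letters as well. A match is only a string of letters in this window.

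A level below is the log2 of a probe's processed signal over the 75th percentile of its array, and a difference is the high-fat minus the control mean, with n = 3 mice per diet throughout. Levels of different probes are not compared with each other. The scanner software marks a spot as well above background or not. Between 27203 and 29412 probes were so marked on each array, no probe was saturated, and the 75th percentile ranged from 1326 to 1973 intensity units. The number of arrays limits the precision. The arrays lay on 3 slides, of which 1 held both diets (high-fat replicates 2 and 3 with control replicate 1). Over 23460 genes or unnamed transcripts that passed the filter on dim signals, limma called 4 at an adjusted p under 0.05, all lower after the high-fat diet. The Trp53 probe had a level of -0.73 ± 0.27 (SD) under high-fat and -0.79 ± 0.26 (SD) under control diet, and since its place relative to the deleted part is not known it checks nothing. The luminal keratins Krt8 and Krt18 were well above background on all 6 arrays, and the milk proteins Csn2 and Csn3 on none.

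Krtdap showed the largest difference among the 15 probes. Its levels (NM_001033131) were -1.08, -1.29 and -0.43 on high-fat replicates 1 to 3 and -2.96, -2.82 and -3.64 on control replicates 1 to 3. Every high-fat array thus lay above every control array, and the gap between the diets was wider than the spread within either. The difference was 2.21 (SE 0.32), or 4.61-fold higher after the high-fat diet. It ranged from 1.95 to 2.39 when each array was left out in turn, and it was 2.10 on the slide that held both diets.

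Dmkn, the neighbour of Krtdap, had the same order of diets on both of its probes (NM_001166173). On A_55_P2133405 the levels were 0.12, 0.75 and 0.85 under high-fat and -0.75, -0.60 and -1.31 under control diet. On A_55_P2140592 they were -0.16, 0.38 and 0.57 under high-fat and -0.99, -0.91 and -1.57 under control diet. The diets did not overlap on either probe, high-fat replicate 1 was the lowest of its group and control replicate 3 the lowest of all on both. The differences were 1.46 (SE 0.28) and 1.42 (SE 0.27), or 2.75-fold and 2.67-fold. Within the shared slide they were 1.55 and 1.46.

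Sbsn, the remaining gene of the trio, did not follow its neighbours. Its levels (NM_172205) were 0.86, 1.52 and 0.10 under high-fat and 1.66, 0.16 and 0.44 under control diet. The diets overlapped across nearly their whole range, with control replicate 1 highest and high-fat replicate 3 lowest. The difference was 0.07 (SE 0.52), which leaves the direction undetermined, and it was -0.86 within the shared slide. The next protein-coding genes outward on chromosome 7 were looked up after these values had been seen. Tmem147, a membrane protein of the endoplasmic reticulum, differed by 0.21 (SE 0.15) and Ffar3, a receptor for short-chain fatty acids, by 0.03 (SE 0.16). Gapdhs, the sperm form of glyceraldehyde-3-phosphate dehydrogenase, was never well above background, and Ffar2, another fatty acid receptor, was so on 2 of 6 arrays.

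Sfn encodes 14-3-3 sigma, an epithelial regulator of the cell cycle that is abundant in keratinocytes and is a known target of p53, which these mice lack. Its levels (NM_018754) were 2.14, 2.21 and 2.25 under high-fat and 0.90, 1.57 and 0.86 under control diet. The high-fat arrays lay close together (2.20 ± 0.06, SD) and above the control arrays, which were more spread (1.11 ± 0.40, SD). The difference was 1.09 (SE 0.22), or 2.12-fold, and 1.33 within the shared slide.

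**Figure D1:**
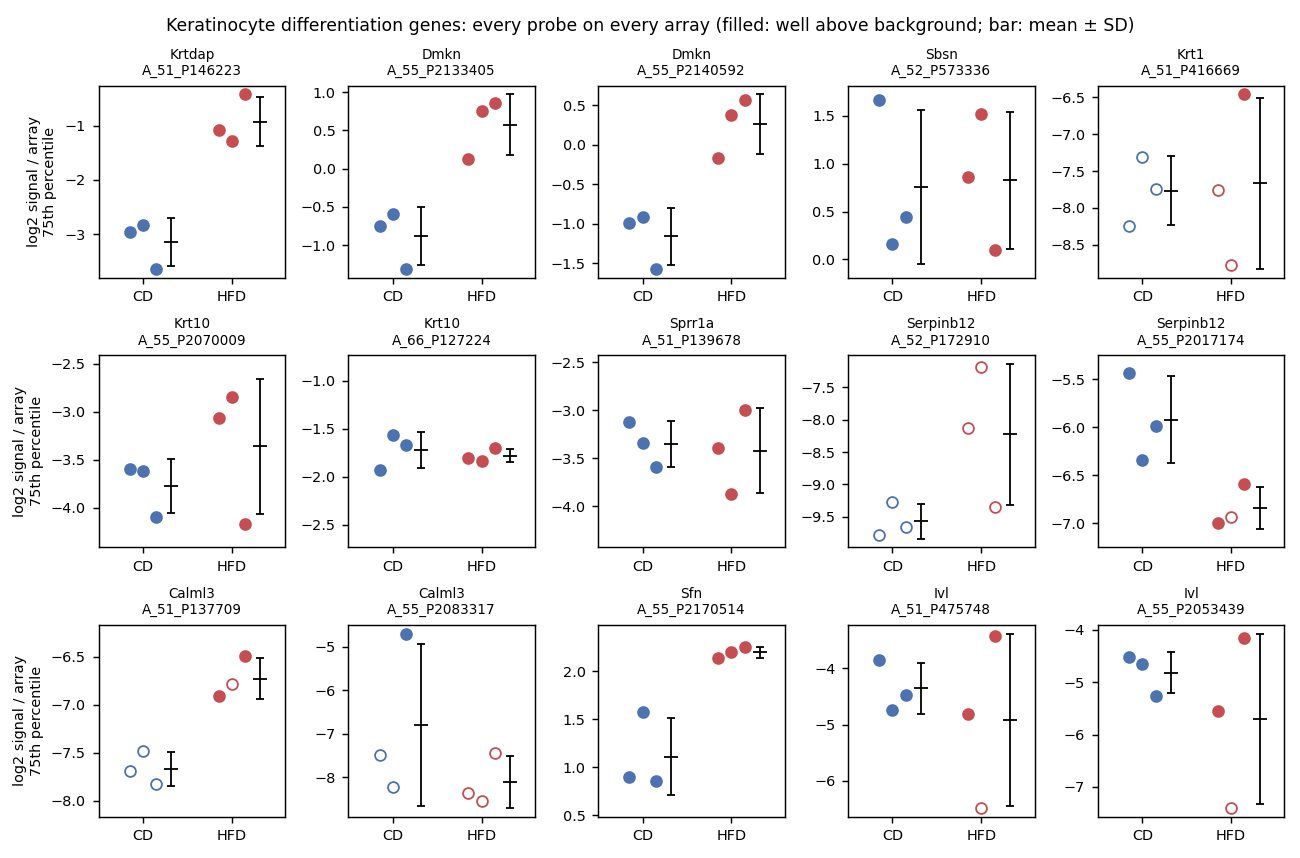
Level (log2 of signal over the array's 75th percentile, vertical axis) of every probe of the 10 genes on every array, with control diet on the left in blue and high-fat diet on the right in red. Filled points were well above background and open points were not, and bars give mean ± SD of 3 arrays. Krtdap, both Dmkn probes and Sfn show diets that do not overlap at levels well above background on all 6 arrays, while Krt1 has 1 filled point. Vertical scales differ between panels.

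The suprabasal keratins gave a different picture. Krt1, the type II keratin that marks the first step out of the epidermal basal layer, was well above background on 1 of 6 arrays. Its levels (NM_008473) were -7.76, -8.78 and -6.46 under high-fat and -8.25, -7.31 and -7.74 under control diet, and only high-fat replicate 3 was marked as above background. No fold is given for it. The high-fat mean (-7.67) lay below the control mean (-7.58) that results from the rule for dim arrays given below for Calml3. Krt10, the type I partner of Krt1, was well above background on all 6 arrays with both of its probes (NM_010660). On A_66_P127224 the levels were -1.80, -1.83 and -1.70 under high-fat and -1.93, -1.57 and -1.67 under control diet, a difference of -0.06 (SE 0.15). On A_55_P2070009 they were -3.07, -2.85 and -4.17 under high-fat and -3.59, -3.62 and -4.09 under control diet, a difference of 0.41 (SE 0.38). The diets overlapped on both, and the probes disagreed on high-fat replicate 3, which was the lowest of the 6 arrays on the second probe and the highest high-fat array on the other.

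The precursors of the cornified envelope did not separate by diet either. Sprr1a, a small proline-rich protein that is crosslinked into the envelope, had levels (NM_009264) of -3.40, -3.87 and -2.99 under high-fat and -3.12, -3.34 and -3.59 under control diet. Both the highest and the lowest value belonged to the high-fat group, and the difference was -0.07 (SE 0.26). Ivl, or involucrin, an early protein of the envelope, spread widely between high-fat arrays. On A_51_P475748 (NM_008412) it had levels of -4.82, -6.49 and -3.43 under high-fat and -3.85, -4.74 and -4.47 under control diet. The high-fat group again held both extremes: replicate 3 was the highest array, and replicate 2 was the lowest and not well above background. The second probe, A_55_P2053439, placed the arrays alike at these extremes, with -5.55, -7.40 and -4.16 under high-fat and -4.52, -4.66 and -5.27 under control diet. The differences were -0.56 (SE 0.76) and -0.88 (SE 0.80). Without high-fat replicate 2 the first became 0.23, so its sign rested on that array.

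Serpinb12, an intracellular serine protease inhibitor of surface epithelia, was the only one of the 10 genes with high-fat values below all control values on any probe. On A_55_P2017174 (NM_027971) its levels were -7.00, -6.93 and -6.58 under high-fat and -5.44, -6.34 and -5.98 under control diet. The difference was -0.92 (SE 0.27), and -1.32 within the shared slide, but the signal was dim, with 2 of 3 high-fat arrays and 3 of 3 control arrays well above background. With a normexp background it was 0.55, against 0.27 for the median of all genes. The other probe, A_52_P172910, was never well above background and gives no fold. Calml3, a calmodulin-like calcium-binding protein of differentiating epithelium, was near the limit on both probes (NM_027416). On A_51_P137709 it was well above background on 2 high-fat arrays and no control array, with levels of -6.91, -6.78 and -6.49 against -7.69, -7.49 and -7.83. An approximate bound put it 1.73-fold higher after the high-fat diet. For that bound, each control array was given the level of its dimmest probe that was well above background, unless the probe itself read higher. High-fat replicate 2, which was not marked, kept its own reading. A probe can read above that level and still not be marked, so the bound is not strict. On A_55_P2083317 it was well above background on 1 array, control replicate 3, whose level was -4.70 where the other 5 arrays ranged from -8.54 to -7.43. The probe thus points the other way through a single array, with an approximate bound of 1.34-fold higher under control diet.

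Of the 10 genes, 8 passed the filter on dim signals (well above background on at least 3 of 6 arrays), and Krt1 and Calml3 did not. Limma called 0 of these 8 at an adjusted p under 0.05, where it called 0.0171% of all genes, while without adjustment 3 had p under 0.05 with higher values (5.88% of all genes did) and 1 with lower values (7.46% of all genes). In 3 of the 8 (Krtdap, Dmkn and Sfn) the high-fat arrays all lay above the control arrays, as they did in 8.47% of all genes, and in 1 (Serpinb12) they all lay below, as in 8.75% of all genes. Nothing is read from these counts, since the genes were chosen with this comparison in view. Their median difference was 0.01, against -0.01 over all genes tested, and it was 0.08 with all 10 genes included. It was 0.58 over the 6 genes well above background on all 6 arrays, 0.44 with a normexp background and 0.28 with array weights. The median near 0 joined 4 positive and 4 negative differences that ran from -0.92 to 2.21. In bulk RNA, fewer cells of a kind and less RNA per cell cannot be told apart.

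**Figure D2:**
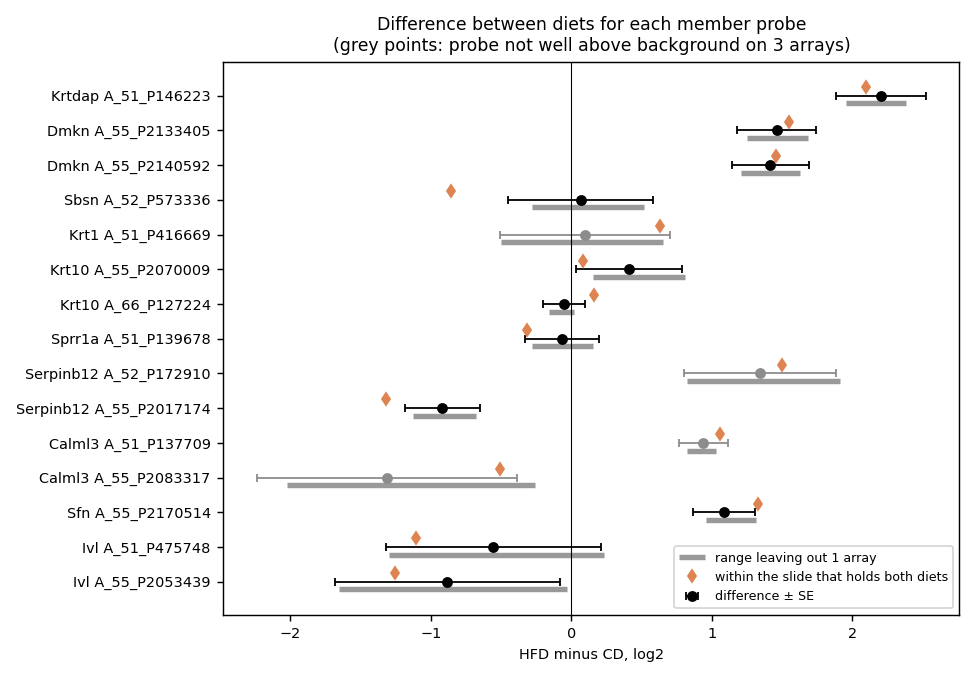
Difference between the diets (high-fat minus control, log2, horizontal axis) for each of the 15 probes, with SE bars from a limma fit over all probes. Grey bands give the range when 1 array is left out and diamonds the value within the slide that held both diets. Krtdap, Dmkn and Sfn stay above 0 in all of these, from 0.96 to 2.39, while Sbsn, Sprr1a and the first Ivl probe lie on both sides of 0.

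Other genes of epidermal differentiation were taken from a list of 46 (late keratins, envelope proteins, crosslinking enzymes, barrier lipid enzymes and proteases), of which 45 were on the array and 30 measured. Their differences lay on both sides of 0. Limma called 0 as higher and 0 as lower (0.0171% of all genes in either direction). Without adjustment 0 passed p under 0.05 upward (5.88% of all genes) and 3 downward (7.46% of all genes). Their median difference was -0.11, with 12 positive and 18 negative. In 0 of 30 did the high-fat arrays all lie above the control arrays (8.47% of all genes), and in 4 they all lay below (8.75% of all genes). The smallest p belonged to Cnfn, or cornifelin, an envelope protein, which differed by -1.38 (SE 0.40, adjusted p = 0.300). Its levels were -5.20, -4.11 and -4.46 under high-fat and -3.36, -3.76 and -2.52 under control diet, so that the control arrays were the higher ones, and with a normexp background the difference was -0.22. Lce3c and Lce3b, late envelope proteins, followed with -1.12 (SE 0.39) and -0.73 (SE 0.30), though with a normexp background these were 0.05 and 0.41. Lypd3, a cell-surface protein of suprabasal cells, differed by -0.13 (SE 0.15), Evpl, or envoplakin, by -0.11 (SE 0.24), and Lce1g, another late envelope protein, by -0.54 (SE 0.54). On none of the arrays were 9 of these genes well above background, including Flg2, Hrnr, Rptn and Krt77, which belong to the upper epidermis. Others of the list, among them Lor, Krt2, Casp14 and Cdsn, were well above background on 3 of 3 arrays of each diet. Between 26 and 31 genes of the list were so on high-fat arrays, and 28 to 33 on control arrays.

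**Figure D3:**
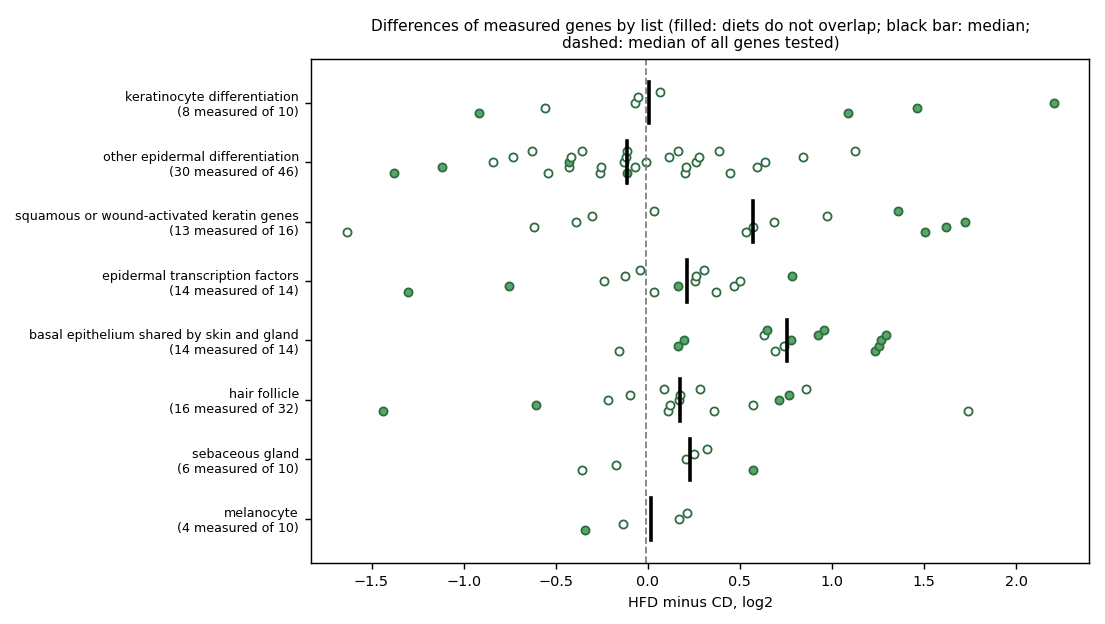
Difference between the diets (high-fat minus control, log2, horizontal axis) of each measured gene in 8 gene lists, 1 point per gene, filled where the diets do not overlap. Black bars are list medians and the dashed line is the median of all 23460 genes tested (-0.01). The medians are 0.01 for the 8 measured of the 10 genes, -0.11 for other epidermal genes and 0.76 for basal genes shared by skin and gland.

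Among keratins of non-cornifying squamous epithelium and of epidermis under repair, Krt6a, Krt6b, Krt13 and Krt17 had values on every high-fat array above those on every control array. The diets overlapped for Krt16, a keratin of activated epidermis (0.57, SE 0.22), and for Krt4, the partner of Krt13 (-0.39, SE 0.28), which was well above background on 1 high-fat and 2 control arrays. The list of 16 genes also held antimicrobial and inflammatory genes of activated epidermis. Of its 13 measured members limma called 0 in either direction (0.0171% of all genes). At an unadjusted p under 0.05, 5 passed upward (5.88% of all genes) and 0 downward (7.46% of all genes). The median difference was 0.57. That median was 0.18 within the shared slide. The 4 members with all high-fat arrays above the control arrays compare with 8.47% of all genes. Krt17 and S100a8 made up 80.6% of the list's summed signal, and without them the diets overlapped, at 5.37 to 13.1 under high-fat and 5.07 to 7.95 under control diet. Krt6a and Krt6b, keratins of hyperproliferative epidermis and hair sheath, differed by 1.72 (SE 0.34, adjusted p = 0.214) and 1.62 (SE 0.28, adjusted p = 0.161). As close paralogs they may share array signal. Krt13, a keratin of internal squamous epithelium, had levels of 1.66, 1.64 and 0.93 under high-fat and -0.02, 0.35 and -0.61 under control diet, a difference of 1.50 (SE 0.31, adjusted p = 0.218). Krt17, which the mammary basal layer also makes, differed by 1.36 (SE 0.27, adjusted p = 0.214). Within the shared slide these 4 differed by 1.82, 1.70, 1.31 and 1.53. S100a8, a calcium-binding protein of activated keratinocytes and of neutrophils, differed by -0.62 (SE 0.88), and by -1.53 within the shared slide.

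Transcription factors that act in epidermal differentiation had no common direction. Of 14 measured, limma called 0 (0.0171% of all genes). Without adjustment 1 passed p under 0.05 upward (5.88% of all genes) and 2 downward (7.46% of all genes). Their median was 0.21, and -0.10 within the shared slide. Tfap2c, an AP-2 factor of ectodermal tissue, differed by 0.78 (SE 0.24, adjusted p = 0.309), but by 0.20 within the shared slide. Maf, which acts in keratinocytes and also in macrophages, differed by -0.75 (SE 0.26). Trp63, the p53 relative that maintains basal epithelium, differed by 0.17 (SE 0.11) and Klf4, a factor of barrier formation, by -0.04 (SE 0.16).

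Markers of skin and its appendages were read beside the 10 genes, since skin lies next to the gland. Of 10 melanocyte genes, 6 were never well above background, among them the pigment enzymes Tyrp1 and Dct, while Tyr, Pmel, Mlana and Trpm1 were above it on all 6. The summed signal of that list, in multiples of each array's 75th percentile, was 0.190 to 0.201 under high-fat and 0.189 to 0.219 under control diet, so the diets overlapped. Cd207, which marks Langerhans cells of the epidermis, was never well above background. The other 4 genes of that list, shared with other immune cells, were above it on all 6 arrays, and the list's summed signal was 1.82 to 2.52 under high-fat and 1.67 to 2.40 under control diet. Cd1d1 and H2-Ab1 made up 96.7% of that sum. Without them it was 0.050 to 0.112 under high-fat and 0.034 to 0.087 under control diet. All 4 differences were positive, with 0 called by limma. Their median was 0.43, and 1.37 within the shared slide. It ran from 0.01 to 0.79 when 1 array was left out. Of 32 hair follicle genes, 30 were on the array and 9 of these were never above background, including Krt35, Krt75 and 6 keratin-associated proteins. Between 13 and 17 of them were above background on high-fat arrays and 15 to 18 on control arrays. Their summed signal was higher under high-fat diet (5.59 to 8.85, against 3.13 to 5.51), but 77.0% of it came from Krt81 and Padi3. Without those it was 1.26 to 1.48 under high-fat and 1.27 to 1.35 under control diet. Krt81 differed by 0.86 (SE 0.39) and Padi3 by 1.74 (SE 0.98), but by 0.12 and 0.25 within the shared slide. Of 10 sebaceous gland genes, 2 were never above background and the summed signal overlapped, at 0.985 to 1.15 against 0.917 to 1.05. Krt79, of sebaceous ducts, differed by 0.57 (SE 0.15, adjusted p = 0.275). The summed signal of the 10 genes themselves was 8.21 to 9.95 under high-fat and 4.13 to 6.24 under control diet, and 74.3% of it came from Sfn and Sbsn. Without those it was 2.00 to 3.11 under high-fat and 0.95 to 1.30 under control diet. The part that skin left on the gland plays in it was not tested.

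**Figure D4:**
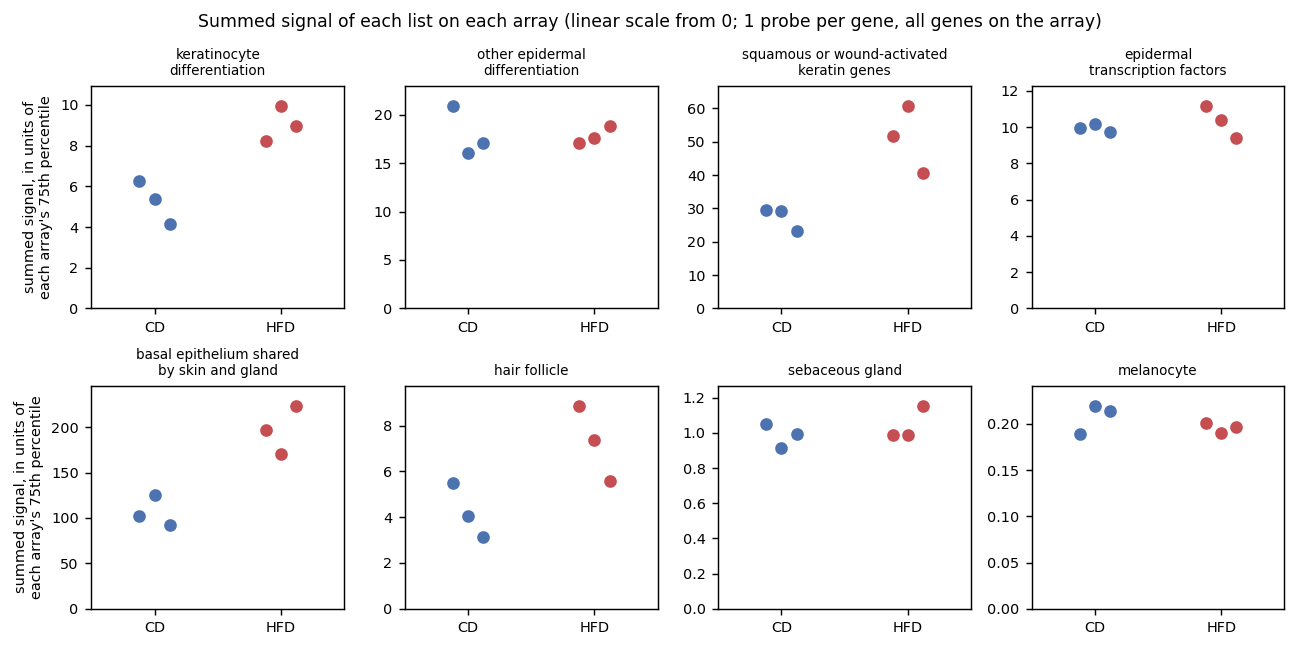
Summed signal of 8 gene lists on each array, in multiples of the array's 75th percentile on a linear axis from 0, with control diet in blue and high-fat diet in red and 1 probe per gene. The diets are apart for the 10 genes (4.13 to 6.24 against 8.21 to 9.95), the squamous keratin list and the basal list. For the hair follicle list they are barely apart (highest control array 5.51, lowest high-fat array 5.59). They overlap for the other epidermal, transcription factor, sebaceous and melanocyte lists.

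Basal epithelial genes that skin and gland share were higher on the high-fat arrays, next to the higher Krtdap, Dmkn and Sfn. In 10 of 14 the high-fat arrays all lay above the control arrays (8.47% of all genes), 0 passed an adjusted p of 0.05 in limma, and 8 passed an unadjusted p under 0.05 upward (5.88% of all genes) and 0 downward. The median was 0.76, and it lay between 0.64 and 0.96 in every alternative. The summed signal was 170 to 223 under high-fat and 92.4 to 125 under control diet. Krt5, the basal keratin, differed by 1.27 (SE 0.16, adjusted p = 0.117). Myoepithelial contractile genes also had higher values, with a median of 0.94 over 8 genes and a summed signal of 181 to 241 against 100 to 153. Luminal genes had a median of 0.70, which was -0.01 within the shared slide, with a summed signal of 274 to 544 against 232 to 336. Whether cell make-up differed between the diets, and its part in the values of Krtdap, Dmkn and Sfn, was not tested. Fibroblast genes had a median of -1.11 with a summed signal of 232 to 554 against 445 to 769, and a median of -0.22 within the shared slide. Skeletal muscle genes had a median of -1.13, which was -0.11 with a normexp background, and a summed signal of 2.90 to 4.57 against 5.95 to 9.52. Adipocyte genes had a median of 0.14, which was 0.74 with a normexp background, and an overlapping summed signal, at 6.07 to 11.1 against 6.59 to 8.11.

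The genes outside the 10 whose levels followed Krtdap most closely over the 6 arrays were sought by the mean absolute distance between levels centred on their own means. The closest were Gprin3 (distance 0.22), Nrep (0.25), Dsg3 (0.28), Pou2af1 (0.32) and Ggt1 (0.36). Of these, Dsg3 encodes a desmoglein, an adhesion protein of stratified epithelium, and its levels were -1.48, -2.19 and -1.55 under high-fat and -3.23, -3.29 and -4.00 under control diet. Its difference was 1.77 (SE 0.29). Gprin3, Nrep, Pou2af1 and Ggt1 differed by 1.93, 1.77, 1.77 and 1.53. A difference like that of Krtdap was built into this search, so these values support nothing. For Krt10, genes among the closest were Cox6a1, Mettl9, Sfr1 and Sart1, at distances of 0.01 to 0.02, and like Krt10 they varied little between arrays, with differences from -0.08 to -0.03. With 6 arrays, and the named genes among 23460 genes or unnamed transcripts as candidates, some genes lie close to any pattern.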

How the data were processed

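Per the file headers, the arrays were read with Agilent Feature Extraction 11.0.1.1 on a design annotated to mm9, and the deposited scanner files hold intensity values on a linear scale, background-subtracted and detrended. The deposited value table holds intensity values too. For 99.9% of its values, the quotient with the processed signal over the array's 75th percentile was the same to within 1%. Its column medians were 0.134 to 0.140, so its scale is linear and uncentred.

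Control spots and outlier-flagged spots were left out, spots of a probe averaged, and 111 of 39429 probes lacked a usable spot on some array. Probes were named through RefSeq accessions (27346 of 39318). Each member probe had 1 spot. Genes were represented by the kept probe with the highest mean. The diet comparison was fitted by lmFit and eBayes of limma 3.58.1 (R 4.3.3), two-sided and without covariates, with Benjamini-Hochberg adjustment. SEs of member probes and of their chromosome neighbours come from a fit over all probes, and those of other genes from the fit over filtered genes. With 3 against 3 an exact permutation test cannot fall below 0.10. The methods were tested on simulated data. The members and gene lists were chosen with earlier results of these data known. Named genes were all members, in each list 3 by smallest p and 3 by highest level, Trp53, and the genes most like Krtdap and Krt10. A selection is printed, and some named genes are not reported here. Alternatives covered scaling, background, filter, floor, probe rule, variance, array weights, slide, replicate number, the deposited table and each array left out. The normexp background used the median spot and local background signals. Whether replicates came from separate litters or cages is not given, so p-values measure the spread between these mice.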

Additional observations from a re-analysis of the deposited data

How the results depend on the processing

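Of the 15 member probes, 7 kept the sign of their difference under every alternative that gave a value, among them Krtdap (1.89 to 2.39), both Dmkn probes (1.25 to 1.72 and 1.21 to 1.65) and Sfn (0.96 to 1.33). The rest of the 7 were Krt10 probe A_55_P2070009, Calml3 probe A_51_P137709 and Serpinb12 probe A_52_P172910. That Calml3 probe was well above background on 2 arrays and that Serpinb12 probe on none, so dim probes kept their sign too. The other 8 changed sign at least once. They were Sbsn, Krt1, Sprr1a, both Ivl probes, Krt10 probe A_66_P127224, Serpinb12 probe A_55_P2017174 and Calml3 probe A_55_P2083317. The count of 4 called genes became 2 with median scaling, 7 with only probes well above background on all 6 arrays, 5408 with array weights, and 0 with quantile normalization, a normexp background, no filter, slide as a block or the replicate block. It ran from 0 to 37 when 1 array was left out, with 37 without high-fat replicate 3 and 0 without any other. At an unadjusted p under 0.05 these fits had 1101 to 9791 genes. Array weights gave control replicate 3 a weight of 4.69 and control replicate 1 one of 0.34. With them 4 of the 8 measured member genes were called, beside 5408 of 23460 over all genes. Nothing is read from that count. The median of the 8 measured member genes was 0.44 with a normexp background and 0.28 with array weights. It ran from -0.059 to 0.28 when 1 array was left out. Over the 6 member genes with probes well above background on all 6 arrays it was 0.58. The median of the other epidermal genes was 0.34 with a normexp background, which also put the median of all genes at 0.27. When 1 array was left out it ran from -0.12 to -0.01. The cause of these moves was not tested.

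Replicate numbers gave deviations with correlations of 0.33, -0.14 and 0.25 between same-numbered arrays, so they were not taken as pairs. The replicate block, under which 0 genes were called, cannot change a difference in this balanced design. Dim signal limits Krt1, Calml3, Serpinb12 and both Ivl probes. With a normexp background the Ivl differences were 0.26 and 0.30, and that of Krt10 probe A_55_P2070009 was 0.92. The values rest on 1 spot per probe and 3 mice per diet.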
